A study of Mus musculus with 6 samples.

Results

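The 5 genes described here encode factors tied to the start of transcription from the embryonic genome, namely the NF-Y subunit genes Nfya, Nfyb and Nfyc and the partner genes Dppa2 and Dppa4. They were taken from the expression table by gene symbol, 5 of 53023 genes, and all 5 were among the 16100 genes tested. RNA-seq was performed on pools of 5 two-cell embryos of the ICR strain at 28 hours post insemination (hpi), in 3 groups of 2 libraries. Non-injection embryos received no mRNA, whereas PIASy-WT and PIASy-Mut embryos received, from 1.5 to 3 hpi, mRNA at 100 ng/µl for tagged PIASy or for its C335F form. PIASy, encoded by Pias4, is an E3 ligase for the small protein modifier SUMO, and the C335F change lies in its RING finger domain, which carries the ligase activity. Injected embryos were chosen by their fluorescence at 9 hpi, a step that the control embryos did not go through. The comparisons ask whether excess PIASy changes gene activation in the two-cell embryo and whether the RING finger is needed for that.

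NF-Y is a trimer that binds the CCAAT box of promoters. NF-YB and NF-YC pair through histone-fold domains, and NF-YA joins the pair and reads the CCAAT sequence. NF-Y has been linked to the opening of chromatin at promoters when the mouse embryo begins to transcribe its genome. DPPA2 and DPPA4 are SAP-domain DNA-binding proteins that act as partners, and in embryonic stem cells they promote Dux and other genes of the two-cell state.

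Library depth, recovered from the FPKM values (fragments per kilobase, scaled to the library total), ranged from 871663 to 1363928 fragments on genes. PIASy-Mut 1 stood apart, with 1.28% of its fragments on mitochondrial genes against 5.82% to 8.14% in the other libraries and 13.4% on its 50 most abundant genes against 19.3% to 26.7%. The injected gene followed the labels, since Pias4 was at 610 and 579 FPKM with PIASy-WT, 862 and 611 with PIASy-Mut and 2.98 and 3.59 without injection. The 7 two-cell embryo markers summed to 1421 to 1513 CPM (fragments scaled to the library total) in non-injection, 1475 to 1707 CPM in PIASy-Mut and 698 to 1003 CPM in PIASy-WT, and all 7 were detected. The 8 oocyte markers summed to 2064 to 2066 CPM in non-injection, 1705 to 3371 CPM in PIASy-Mut and 4981 to 5585 CPM in PIASy-WT. Bmp15, an oocyte growth factor gene, made up most of this sum, with 5204 and 5199 fragments with PIASy-WT, 1036 and 1986 with PIASy-Mut and 2011 and 1594 without injection. It did not pass the test described below, at log2 fold changes of 1.55 (limma adjusted P = 0.0737) and 1.48 (limma adjusted P = 0.0824). Of the 8, 0 passed as higher in PIASy-WT and 1 as lower, the egg-coat gene Zp3, at -1.57 (limma adjusted P = 0.0292) against non-injection and -1.67 (limma adjusted P = 0.0240) against PIASy-Mut. The 7 markers of cumulus cells, which surround the oocyte, summed to 18.6 to 19.8 CPM, 19.4 to 20.7 CPM and 14.3 to 15.7 CPM in the same order, with Foxl2 at 0 fragments in all 6 libraries and the other defining genes Has2, Ptx3 and Fshr at no more than 2 fragments in any. The cumulus marker Amhr2, a hormone receptor gene, had 3 and 4 fragments with PIASy-WT, 14 and 8 with PIASy-Mut and 22 and 17 without injection and passed as lower against non-injection, at -1.86 (limma adjusted P = 0.0427). Tnfaip6, of the cumulus matrix, had 11 and 10 fragments with PIASy-WT, 5 and 8 with PIASy-Mut and 4 and 4 without injection, at 1.05 (limma adjusted P = 0.154) against non-injection. Ptgs2, a prostaglandin synthase gene, was too low to be tested, at 2 and 4 fragments with PIASy-WT, 0 and 1 with PIASy-Mut and 1 and 0 without injection. The 6 sperm markers summed to no more than 4.40 CPM in any library, with Tnp2 and Akap4 at 0 throughout. Every level is a share of its library from whole embryos, so that carried-over maternal RNA, newly made RNA and total RNA per embryo cannot be told apart. The part of the summed oocyte markers in the results below was not tested.

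In the plot of member levels, Dppa4 was the most abundant of the 5 genes in every non-injection and PIASy-Mut library and fell in PIASy-WT to the level of the weakest NF-Y subunit genes. Nfyb, Nfyc and Dppa2 were also lower in both PIASy-WT libraries than in the other 4, whereas Nfya was not. This pattern, met by 4 of the 5 members, was met by 24.4% of all genes tested. Groups were compared with limma on log2(FPKM + 1) over all 16100 genes, with Benjamini-Hochberg adjustment and 0.05 as the largest adjusted P of a call. Of the 5 members, 1 (Dppa4) passed as lower in each PIASy-WT comparison, beside 5.76% of all genes tested against non-injection and 6.01% against PIASy-Mut. None of the 5 passed as higher in PIASy-WT, beside 1.03% and 0.82% of all genes, and at an unadjusted P under 0.05, 4 members against non-injection and 3 against PIASy-Mut were lower, beside 17.6% and 18.2% of all genes. Between PIASy-Mut and non-injection 0 members passed, beside 0.00621% of all genes, which was Pias4 alone, and 0 members had an unadjusted P under 0.05, beside 4.46% of all genes. With voom on the recovered fragments, 2 members against non-injection and 3 against PIASy-Mut passed as lower, beside 19.0% and 18.8% of the 10193 genes it tested. Without PIASy-Mut 1, 3 members were lower against non-injection and 0 against PIASy-Mut, beside 12.2% and 0.0% of all genes. Without PIASy-Mut 2, 3 were lower in each comparison, beside 12.3% and 13.2%, and 1 was higher against PIASy-Mut, beside 6.63%. Without either non-injection or either PIASy-WT library, 0 members passed in the PIASy-WT comparisons, where 0 of all genes were lower and 0 or 1 higher, so these fits tell nothing about the members. Each comparison of PIASy-WT uses the same 2 PIASy-WT libraries, so the pair is not independent.

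**Figure D1:**
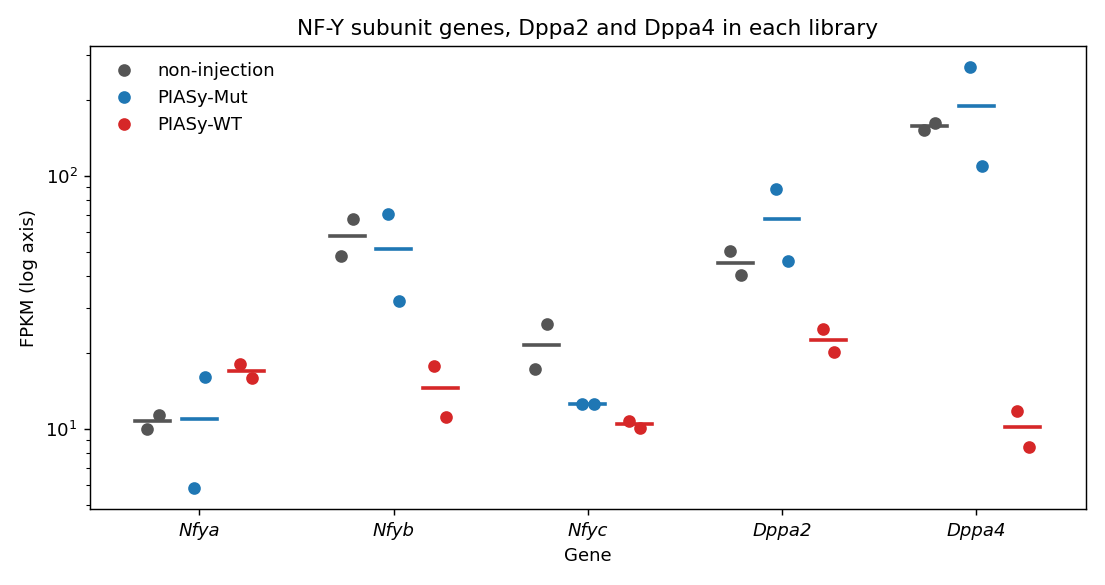
Level of each gene in each library as FPKM on a log axis, with points for the 6 libraries and bars for the mean of the 2 libraries of a group. The PIASy-WT points of Dppa4, at 11.8 and 8.51 FPKM, lie apart from the other 4 libraries, and those of Nfya lie within or above the range of the other groups.

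Dppa4 (ENSMUSG00000058550.14) is a protein-coding gene at mm10 chromosome 16, 48283735 to 48294292, on the plus strand. It was detected with 24 and 15 fragments with PIASy-WT, 426 and 146 with PIASy-Mut and 318 and 281 without injection. The 24 fragments of PIASy-WT 1 carry an exact Poisson 95% interval of 15.4 to 35.7 and the 15 of PIASy-WT 2 one of 8.40 to 24.7, which cover counting error only. In FPKM the libraries stood at 11.8 and 8.51 with PIASy-WT, 269 and 109 with PIASy-Mut and 152 and 162 without injection. Both PIASy-WT libraries were thus below all the others, by at least 9.25-fold between the nearest libraries of PIASy-WT and PIASy-Mut. Group means were 157 ± 7.07 FPKM (SD, n = 2) in non-injection, 189 ± 113 FPKM in PIASy-Mut and 10.2 ± 2.33 FPKM in PIASy-WT.

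Against non-injection, Dppa4 was lower in PIASy-WT by a log2 fold change of -3.84 (SE 0.45, 95% interval -4.93 to -2.75, limma adjusted P = 0.0224). Against PIASy-Mut the log2 fold change was -3.97 (SE 0.45, 95% interval -5.05 to -2.88, limma adjusted P = 0.0221). In linear terms the group means differed 15.5-fold and 18.6-fold. Among the 16100 genes, Dppa4 had the 58th most negative log2 fold change against non-injection and the 53rd most negative against PIASy-Mut. It also met the larger size of a log2 fold change of -2 or less, which 3.81% of all genes met against non-injection and 4.06% against PIASy-Mut. PIASy-Mut and non-injection overlapped, with a log2 fold change of 0.13 and a 95% interval of -0.96 to 1.21.

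The size of the difference held without any one library, at -3.88, -3.79, -4.05 and -3.62 against non-injection without non-injection 1, non-injection 2, PIASy-WT 1 and PIASy-WT 2. Against non-injection the adjusted P of Dppa4 was 0.161, 0.194, 0.0669 and 0.125 in the same order, and against PIASy-Mut it lay between 0.0587 and 0.114 without each of these libraries or PIASy-Mut 1 and was 0.0681 in a fit of those groups alone. In each of these fits 0 of all genes passed as lower, so the lost call is not particular to Dppa4. Without PIASy-Mut 1, the highest library, the log2 fold change against PIASy-Mut was -3.32. About 31.3% of its 50-base sequences are also present in the processed pseudogenes Gm14058 and Gm5501, and reads that match both places equally are not uniquely mapped. These pseudogenes held no more than 4 fragments in any library.

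Dppa2 (ENSMUSG00000072419.4) lies 16184 bases downstream of Dppa4 at mm10 chromosome 16, 48310477 to 48319723, on the same strand. It encodes the partner with which DPPA4 binds chromatin. The libraries held 64 and 45 fragments with PIASy-WT, 179 and 78 with PIASy-Mut and 134 and 89 without injection. The levels were 24.8 and 20.1 FPKM with PIASy-WT, 89.0 and 45.9 with PIASy-Mut and 50.4 and 40.4 without injection. Both PIASy-WT libraries were below the other 4, with a nearest gap of 1.63-fold. The log2 fold change of PIASy-WT was -0.98 against non-injection (95% interval -1.89 to -0.08, limma adjusted P = 0.150) and -1.48 against PIASy-Mut (95% interval -2.38 to -0.58, limma adjusted P = 0.0666). Neither passed the threshold. In fits that changed the filter, the samples or the test, some calls were gained. Among them, without PIASy-Mut 2 the value against PIASy-Mut was -1.95 (limma adjusted P = 0.0168), and without PIASy-Mut 1 or PIASy-Mut 2 the adjusted P of limma against non-injection was 0.0455 and 0.0448. About 29.1% of the 50-base sequences of Dppa2 occur in 7 other genes. Those of them with an entry in the expression table were processed pseudogenes, each with no more than 5 fragments in any library.

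The ratio of Dppa4 to Dppa2 in FPKM was 0.476 and 0.423 with PIASy-WT, 3.02 and 2.38 with PIASy-Mut and 3.01 and 4.01 without injection. Dppa4 was above Dppa2 in 4 of 4 libraries without PIASy-WT and below it in 2 of 2 with it. The mean ratio was 0.450 ± 0.0374 (SD, n = 2) with PIASy-WT, 2.70 ± 0.456 with PIASy-Mut and 3.51 ± 0.704 without injection. An exact two-sided permutation test of 2 libraries against 2 gave P = 0.333 for PIASy-WT against either group, the smallest it can give at n = 2, so this test could not pass and the values stand as a description. Of the other genes within 500 kb of either gene, 3 were tested, Gm7204, Gm5485 and Morc1, and 0 of these passed in any comparison. Their log2 fold changes of PIASy-WT against non-injection were -0.44, 1.21 and -0.50.

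The NF-Y subunit genes were taken in the order in which their products assemble. Nfyb (ENSMUSG00000020248.18) lies at mm10 chromosome 10, 82748701 to 82764144, on the minus strand and encodes a histone-fold subunit. Its fragments numbered 119 and 65 with PIASy-WT, 368 and 141 with PIASy-Mut and 332 and 387 without injection. The levels were 17.7 and 11.2 FPKM with PIASy-WT, 70.3 and 31.9 with PIASy-Mut and 48.0 and 67.5 without injection. PIASy-WT was below all 4 other libraries, the nearest being PIASy-Mut 2 at 1.80-fold above. Against non-injection the log2 fold change was -1.94 (SE 0.45, 95% interval -3.04 to -0.84, limma adjusted P = 0.0576), and against PIASy-Mut it was -1.68 (SE 0.45, 95% interval -2.78 to -0.58, limma adjusted P = 0.0767). These values missed the threshold, and they passed it under some alternatives, among them voom on recovered fragments, where the adjusted P was 0.00279 and 0.00709. Without PIASy-Mut 1 or PIASy-Mut 2 the adjusted P of limma against non-injection was 0.0244 and 0.0240, and without PIASy-Mut 2 the value against PIASy-Mut was -2.24 (limma adjusted P = 0.0239).

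Nfyc (ENSMUSG00000032897.17), the histone-fold partner of NF-YB, lies at mm10 chromosome 4, 120757438 to 120831572, on the minus strand. Mir30c-1, Mir30e and Mir30f lie within its span, and whether counting used the strand is not given in the sources used here. About 22.2% of its 50-base sequences also occur in the processed pseudogene Gm9144, which held no more than 5 fragments in any library. Nfyc gave 42 and 34 fragments with PIASy-WT, 38 and 32 with PIASy-Mut and 69 and 86 without injection. In FPKM these were 10.8 and 10.1 with PIASy-WT, 12.5 and 12.5 with PIASy-Mut and 17.2 and 25.8 without injection. Both injected groups were below non-injection, and PIASy-WT lay just below PIASy-Mut. The log2 fold change against non-injection was -0.95 for PIASy-WT (95% interval -1.69 to -0.22, limma adjusted P = 0.108) and -0.71 for PIASy-Mut (95% interval -1.45 to 0.03, limma adjusted P = 1). Between PIASy-WT and PIASy-Mut it was -0.24 (95% interval -0.98 to 0.50, limma adjusted P = 0.636), and it changed sign to 0.0701 under quantile normalization.

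Nfya (ENSMUSG00000023994.13), whose product makes the sequence-specific contact with the CCAAT box, lies at mm10 chromosome 17, 48386885 to 48409906, on the minus strand. No other gene shares a 50-base sequence with Nfya or Nfyb. It gave 175 and 133 fragments with PIASy-WT, 44 and 102 with PIASy-Mut and 100 and 94 without injection. The levels were 18.0 and 15.8 FPKM with PIASy-WT, 5.83 and 16.0 with PIASy-Mut and 10.02 and 11.4 without injection. PIASy-WT was above non-injection without overlap and overlapped PIASy-Mut, so Nfya is not among the 19.9% of genes tested with both PIASy-WT libraries above the other 4. The log2 fold change of PIASy-WT was 0.62 against non-injection (95% interval -0.51 to 1.75, limma adjusted P = 0.427) and 0.73 against PIASy-Mut (95% interval -0.40 to 1.86, limma adjusted P = 0.362). The value against PIASy-Mut rested on which PIASy-Mut library was used, being 1.39 (limma adjusted P = 0.0348) without PIASy-Mut 2 and 0.0746 without PIASy-Mut 1.

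**Figure D2:**
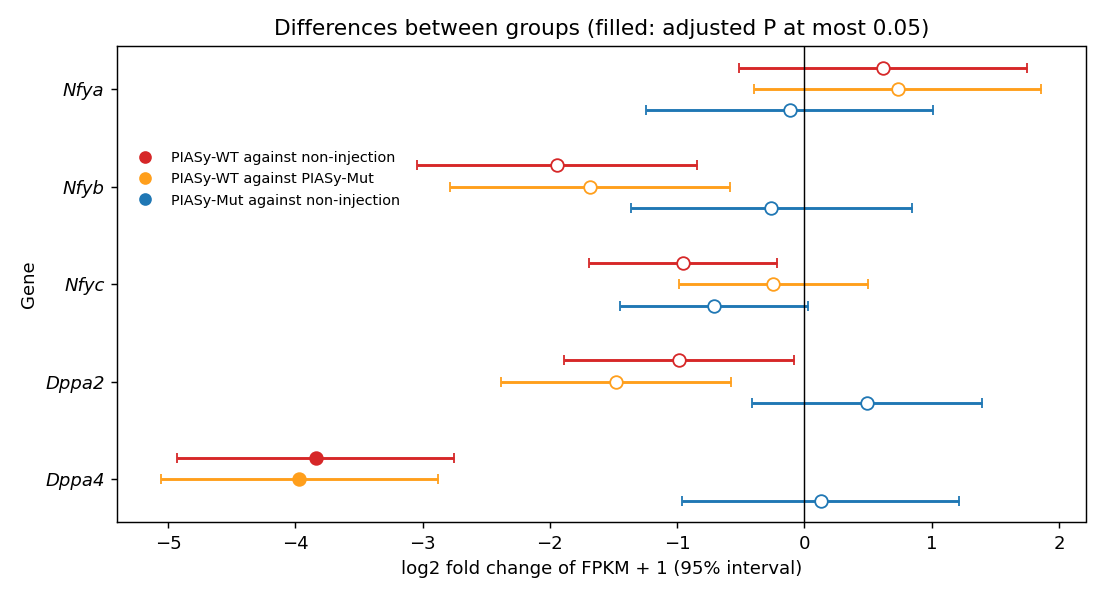
Log2 fold change of FPKM + 1 for each gene in the 3 comparisons, with 95% intervals from limma and filled points at an adjusted P of at most 0.05. The filled points are those of Dppa4 in the PIASy-WT comparisons, at -3.84 and -3.97.

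Of the summed FPKM of the 3 subunit genes, Nfyb made up 38.1% and 30.1% with PIASy-WT, 79.3% and 52.9% with PIASy-Mut and 63.8% and 64.5% without injection. Nfya made up 38.8% and 42.7% with PIASy-WT, 6.57% and 26.5% with PIASy-Mut and 13.3% and 10.8% without injection. The Nfyb share was lower, and the Nfya share higher, in both PIASy-WT libraries than in the other 4, and since the shares of a library add up to the whole these are not separate observations. The Nfyc share lay between 14.1% and 27.2% over all 6 libraries. The summed level was 46.5 and 37.0 FPKM with PIASy-WT, 88.7 and 60.4 FPKM with PIASy-Mut and 75.2 and 104.7 FPKM without injection. The exact permutation P of the Nfya and Nfyb shares was 0.333 for PIASy-WT against either group, the smallest this n = 2 design allows, so the shares too stand as a description. These are shares of mRNA, and subunit protein was not measured.

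**Figure D3:**
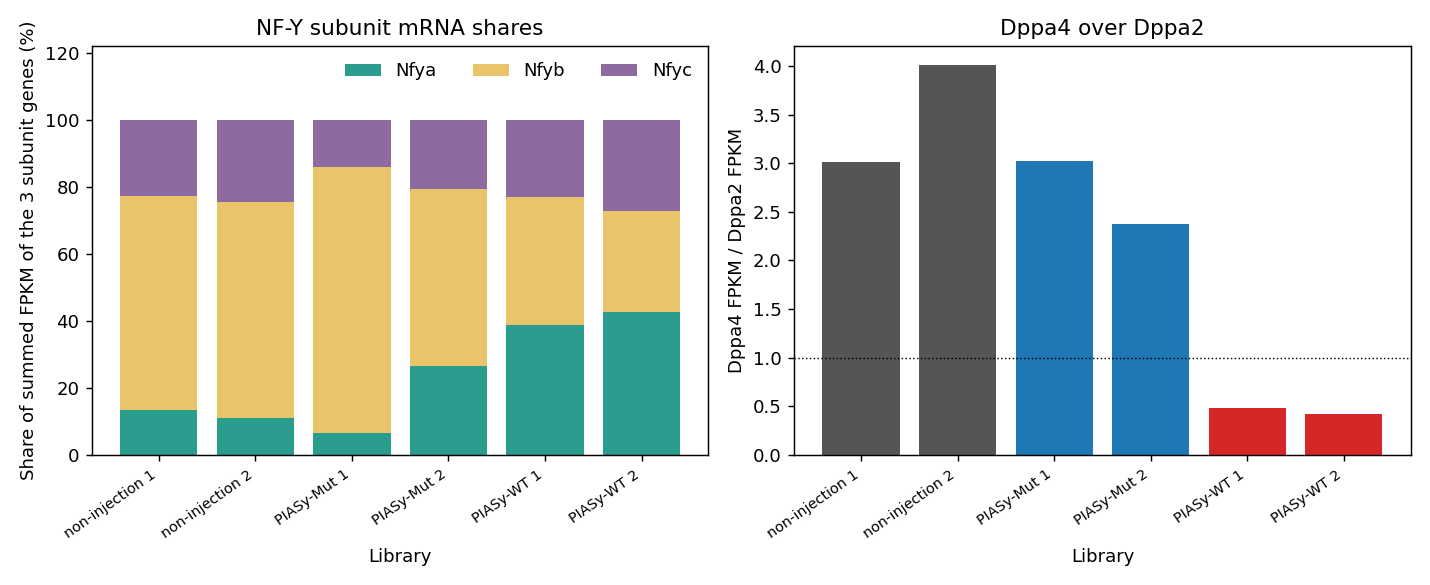
Left, share of each NF-Y subunit gene in the summed FPKM of the 3 genes for each library, in percent; right, FPKM of Dppa4 divided by that of Dppa2, with a dotted line at equal levels. Nfyb takes 52.9% to 79.3% in the 4 libraries without PIASy-WT and 30.1% to 38.1% in PIASy-WT, and the Dppa4 ratio is 2.38 to 4.01 against 0.423 to 0.476.

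By level, the members were ordered Dppa4, Dppa2, Nfyb, Nfyc and Nfya in non-injection 1 and PIASy-Mut 1. In non-injection 2 Nfyb stood above Dppa2, and in PIASy-Mut 2 Nfya stood above Nfyc. Dppa2 and Nfyb, at 45.4 ± 7.09 and 57.8 ± 13.8 FPKM (SD, n = 2) in non-injection, were neighbours that did not differ beyond their spread. In PIASy-WT the order was Dppa2, Nfya, Nfyb, Dppa4 and Nfyc in library 1 and Dppa2, Nfya, Nfyb, Nfyc and Dppa4 in library 2. Dppa4 and Nfyc, at 10.2 ± 2.33 and 10.4 ± 0.507 FPKM, were not apart there, nor were Nfya and Nfyb, at 16.9 ± 1.58 and 14.4 ± 4.64 FPKM. Against all genes tested, Dppa4 stood between the 96.3 and 98.6 percentiles in the 4 libraries without PIASy-WT and at the 76.5 and 71.0 percentiles with it.

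Among 4051 tested genes with a mean of at least 50 fragments, the genes whose profile over the 6 libraries was nearest to each member were named by the root mean square difference of log2(FPKM + 1) after centring each gene. For Dppa4 these were the Obox homeobox gene family members Obox3-ps4, a pseudogene (0.120), and Obox6 (0.137), both on chromosome 7. Obox6 was at 51.6 and 42.7 FPKM with PIASy-WT, 1002 and 513 with PIASy-Mut and 601 and 595 without injection. The nearest to Nfyb were Scnm1 (0.127), a splicing factor gene, and Adi1 (0.140), which encodes an enzyme of methionine salvage. Nfya was nearest to Scamp1 (0.0941) and Klhl1 (0.103), Nfyc to Gmfb (0.155) and Dhx36 (0.174), and Dppa2 to Wdr45b (0.0926) and Olfr995 (0.102). Between the members the nearest pair was Nfyb and Dppa2, at 0.484, and 1098 genes had a profile nearer to Dppa2 than Nfyb did. These distances describe 6 libraries in which both PIASy-WT libraries differ from the rest, and they carry no test.

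The gene lists around the members gave the following. Of 12 NF-Y relatives and partner factors (histone-fold relatives and factors that act with NF-Y on promoters), 11 were tested, 2 passed as lower in PIASy-WT against non-injection, 1 against PIASy-Mut and 0 as higher. Over all genes the lower share was 5.76% and 6.01%, a share that the counts of each list are read against. The list median of the log2 fold change was 0.13 and -0.06, beside 0.01 and -0.03 over all genes. Chrac1, which encodes a histone-fold subunit of a chromatin remodelling complex, was at 4.17 and 5.18 FPKM with PIASy-WT, 46.5 and 22.9 with PIASy-Mut and 18.7 and 35.7 without injection. The log2 fold changes were -2.25 (limma adjusted P = 0.0452) and -2.58 (limma adjusted P = 0.0347). Sp1, a GC-box factor that often works beside NF-Y, passed only against non-injection, at -1.76 (limma adjusted P = 0.0468), with -1.58 (limma adjusted P = 0.0583) against PIASy-Mut, and the difference between these was not tested. The 2 calls against non-injection fell to 0 with a pseudocount of 0.1, without a filter, with quantile normalization, with size factors, without the trend and with the replicate block, and the 1 against PIASy-Mut, Chrac1, was lost without a filter and without the trend. Over all genes the lower count fell in these 6 fits too, from 928 to between 154 and 773 against non-injection and from 968 to between 243 and 840 against PIASy-Mut, which bears on every list below.

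Of 18 genes with CCAAT boxes known to be under NF-Y, all tested, 1 passed as lower against non-injection and 3 against PIASy-Mut, and 0 as higher, beside 5.76% and 6.01% of all genes lower. The 3 fell to 1 without a filter, with quantile normalization, with size factors and without the trend, and the 1 became 2 with the replicate block. The list median was -0.39 and -0.44. Cdk1, the kinase that drives entry into mitosis, was at 42.1 and 31.2 FPKM with PIASy-WT, 238 and 166 with PIASy-Mut and 182 and 181 without injection. It was lower by log2 fold changes of -2.29 (limma adjusted P = 0.0247) and -2.42 (limma adjusted P = 0.0223). The mitotic cyclin gene Ccnb1 was at -0.46 and -0.42 and Ccnb2 at 0.45 and 0.54, and neither passed.

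Of 21 two-cell genes placed downstream of DPPA2 and DPPA4, 19 were tested, 3 passed as lower against non-injection and 4 against PIASy-Mut, and 0 passed as higher, beside 5.76% and 6.01% of all genes lower. These became 1 and 2 without a filter and without the trend, and 2 against PIASy-Mut with quantile normalization. The list median was -0.32 and -0.48. Usp17lb, of a family of deubiquitinase genes, was at 66.7 and 69.7 FPKM with PIASy-WT, 582 and 415 with PIASy-Mut and 387 and 420 without injection, with log2 fold changes of -2.55 (limma adjusted P = 0.0224) and -2.83 (limma adjusted P = 0.0219). The other Usp17l genes did not pass, with Usp17la at 0.58 and 0.39, Usp17lc at -0.64 and -1.35, Usp17ld at 0.52 and 0.32 and Usp17le at 2.12 (limma adjusted P = 0.0877) and 1.95 (limma adjusted P = 0.105), the highest values of the list. The BTB-domain gene Tdpoz1 was lower by -2.15 and -2.47, and Tdpoz4 by -1.69 and -1.67, each with a limma adjusted P between 0.0269 and 0.0328. Tdpoz2, at -1.75 and -3.02, and Tdpoz3, at -0.84 and -0.61, did not pass, and Tdpoz5 was not tested. No Zscan4 gene passed in either comparison. Zscan4d was at 126 and 75.4 FPKM with PIASy-WT, 61.4 and 187 with PIASy-Mut and 127 and 102 without injection, log2 fold changes of -0.22 and -0.13. Zscan4a was at 0.64 and 1.32, Zscan4b at 1.18 and 0.31 and Zscan4c at 0.44 and -0.48. Zscan4e was at 0.70 and -0.30 and Zscan4f at 1.02 and 0.59. Dux, listed as Duxf3, had 0 fragments in 5 libraries and 2 in PIASy-WT 2. These counts lie at or below the 3 fragments taken as the limit of detection, so no change of Dux could be read from them. The part of depth, or of counting only uniquely mapped reads, in these low counts was not tested. By quantitative PCR, the paper reports a higher Dux level in embryos overexpressing PIASy-WT. The Zscan4, Usp17l and Tdpoz families hold near-identical copies, and reads were counted only where they mapped uniquely, so levels of single copies are uncertain.

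Of the 3 other Dppa genes, Dppa5a passed as lower in both comparisons, at -1.85 (limma adjusted P = 0.0477) and -2.02 (limma adjusted P = 0.0403), and 0 passed as higher. The maternal factor gene Dppa3 was at -0.88 and -0.64 and Dppa1 at 0.79 and 0.44, and neither passed. The calls of Dppa5a were lost with a pseudocount of 0.1, without a filter, with quantile normalization, with size factors and without the trend. Of 12 other activators of the embryonic genome, 11 were tested and 2 passed as lower in each comparison, with 0 higher, and list medians of -0.67 and -0.66. Gabpa, an ETS-family transcription factor gene, was at 20.6 and 9.64 FPKM with PIASy-WT, 278 and 98.6 with PIASy-Mut and 191 and 158 without injection, with log2 fold changes of -3.53 (limma adjusted P = 0.0317) and -3.46 (limma adjusted P = 0.0295). Kdm5b, an H3K4 demethylase gene, was lower by -1.87 (limma adjusted P = 0.0358) and -1.97 (limma adjusted P = 0.0322). Without either non-injection or either PIASy-WT library, 0 genes of these 5 lists passed in the PIASy-WT comparisons, and without PIASy-Mut 1 0 passed against PIASy-Mut. In these fits 0 of all genes were lower and 0 or 1 higher, so the counts are no result about the lists. Against non-injection, the genes lower without PIASy-Mut 1, and likewise without PIASy-Mut 2, numbered 4, 6, 5, 1 and 4 in the order of the lists above, beside 12.2% and 12.3% of all genes. Against PIASy-Mut without PIASy-Mut 2 the list medians were 0.04, -0.64, -0.07, -0.84 and -0.76 in the same order, beside -0.02 over all genes. Without a filter 0 of the other activators passed in either comparison, and without the trend 0 against non-injection. With voom the genes lower against non-injection numbered 4, 5, 5, 2 and 4 in the order of the lists, beside 19.0% of all genes, and against PIASy-Mut 4, 6, 8, 1 and 3, beside 18.8%. Also with voom, 1 two-cell gene was higher in each comparison and 1 gene under NF-Y against PIASy-Mut, beside 8.51% and 5.94% of all genes. At an FPKM of at least 5 the lower genes numbered 4, 4, 4, 1 and 3, beside 17.4% of all genes, and 3, 5, 5, 1 and 3, beside 17.9%, and 1 gene under NF-Y was higher against PIASy-Mut, beside 2.5%.

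**Figure D4:**
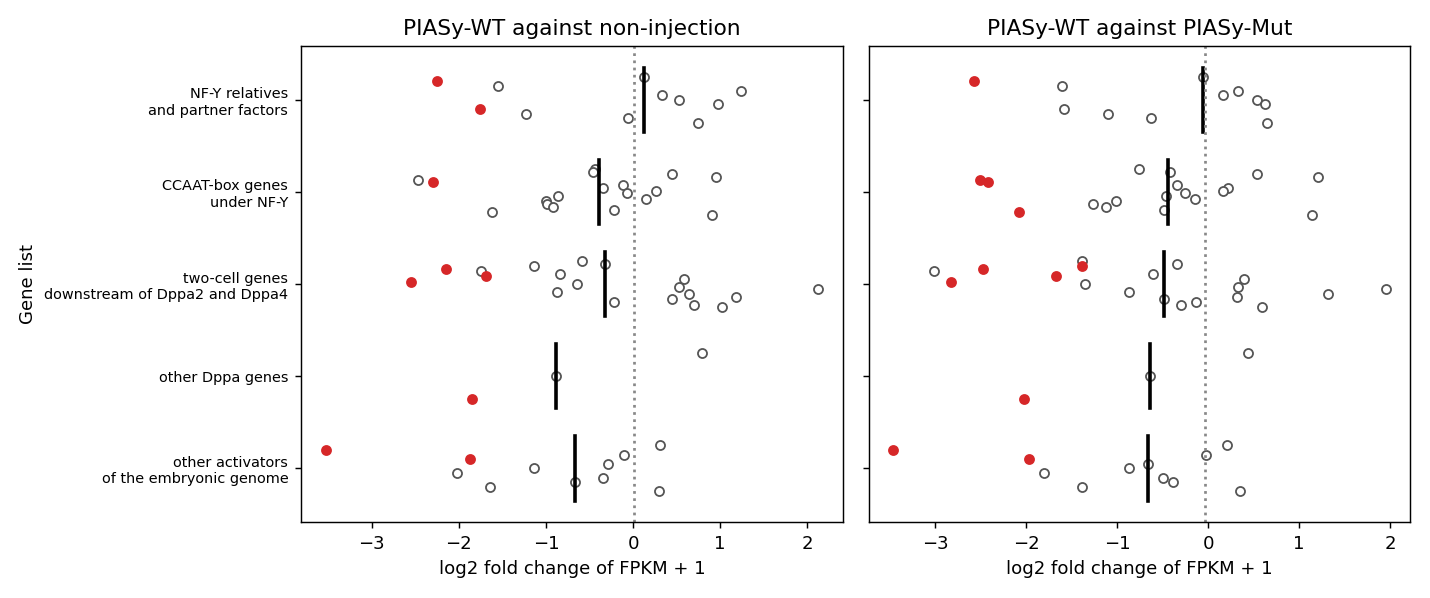
Log2 fold change of FPKM + 1 of each tested gene of the 5 lists, with filled points at an adjusted P of at most 0.05, black bars for the list medians and a dotted line for the median of all genes tested. Filled points lie on the lower side in both panels, the farthest being Gabpa at -3.53 and -3.46.

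Because NF-Y binds CCAAT, the promoters of the subunit genes were read from RefSeq windows of 300 bases (GRCm38, 250 before and 50 after each start), in which CCAAT was searched on both strands. Of the 5 members, 3 had windows, 7 in all. The windows below are shown because one holds the most matches among these genes and the other, like 3 more of the 7, holds none. They are the 250 bases before an Nfyc start, at chr4:120825210-120825459, and before the Nfyb start, at chr10:82764142-82764391, both read 5′ to 3′ on the minus strand, with CCAAT or its reverse complement ATTGG in capitals.
Nfyc: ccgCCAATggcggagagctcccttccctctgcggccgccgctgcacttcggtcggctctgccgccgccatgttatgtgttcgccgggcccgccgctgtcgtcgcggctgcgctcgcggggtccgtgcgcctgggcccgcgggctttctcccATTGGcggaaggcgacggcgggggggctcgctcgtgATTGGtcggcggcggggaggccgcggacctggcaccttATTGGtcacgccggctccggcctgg
Nfyb: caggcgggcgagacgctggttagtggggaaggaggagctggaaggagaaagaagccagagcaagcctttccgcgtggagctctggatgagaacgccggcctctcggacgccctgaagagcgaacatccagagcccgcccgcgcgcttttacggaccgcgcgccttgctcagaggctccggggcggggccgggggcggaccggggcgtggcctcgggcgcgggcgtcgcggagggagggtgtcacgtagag

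The Nfyc window held 5 matches over its 300 bases, 4 of them before the start, which 0.271% of all 32851 windows reach or exceed, whereas the Nfyb window held 0. The other Nfyc windows held 3 and 0, and of the 3 Nfya windows 1 held a single match. CCAAT was present in 37.4% of all windows. Over the genes tested with a window, 5385 had no CCAAT, 2684 had 1 and 1678 had 2 or more in their richest window. The share passing as lower in PIASy-WT against non-injection was 6.26%, 5.55% and 6.32%, and against PIASy-Mut 6.57%, 5.48% and 6.26%, in that order. The median log2 fold change against non-injection was 0.01, 0.09 and -0.06. CCAAT followed by CA, CG, GA or GG gave lower shares of 6.02%, 6.41% and 5.73% against non-injection for 0, 1 and 2 or more matches. CCAAT was present in 12 of 14 genes with a window in the list of genes under NF-Y, in 12 of 14 in the list of two-cell genes, and in 44.7% of all tested genes with one. The longer form, CCAAT followed by CA, CG, GA or GG, was present in 12 and 0 of these 14, beside 2537 of 9744 tested genes. The two-cell list holds families of near-identical copies, so its windows are not all separate observations. The share passing as higher was 1.00%, 0.745% and 0.596% against non-injection and 0.780%, 0.373% and 0.417% against PIASy-Mut for 0, 1 and 2 or more CCAAT matches. Among genes with 1 window only, the lower shares were 6.58%, 5.84% and 7.30% against non-injection and 6.84%, 5.70% and 7.30% against PIASy-Mut. Their median log2 fold changes against non-injection were 0.00209, 0.0435 and -0.138. All these shares are a description with no test.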

How the data were processed

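Gene expression was measured in 6 libraries of pooled two-cell embryos. The authors trimmed the reads with Trim Galore, aligned them to mm10 with STAR, used featureCounts on uniquely mapped reads, and deposited 53023 genes as FPKM; the annotation release and the strand setting are not given in the sources used here. The product of FPKM and gene length, in units of 1 fragment, was whole (tolerance 0.01) for 100% of the values, which gave each library's depth. Spike-in RNA had 0 entries in the table. Differences were fitted with limma 3.58.1 in R 4.3.3 (lmFit, eBayes with trend, all 6 libraries, no block) on log2(FPKM + 1), a scale that understates changes of low genes, over the 16100 genes that reached an FPKM of 1 in 2 or more libraries, with 3 residual and 3.12 prior degrees of freedom and Benjamini-Hochberg adjustment. The labels do not say whether the 2 libraries of a group came from separate collections, so P-values measure only the spread between them. Samples were grouped by their labels. Named genes were the 5 members, Pias4 and Dux, the 2 nearest profiles of each member, and up to 4 genes per list that passed with a change of 1 or more (log2) in both PIASy-WT comparisons; the other list genes, marker genes and neighbours given were chosen after their values were seen. The members and lists were chosen with earlier results of these data known, and the members were not adjusted over their list alone. Promoters were matched by symbol, and shared 50-base sequences were counted over GENCODE M21 transcripts. The fit was checked on simulated data. Alternatives changed the pseudocount, filter, scaling, trend, samples, block and test. Python 3.11.15, numpy 2.4.6, pandas 2.3.3 and scipy 1.17.1 were used.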

Additional observations from a re-analysis of the deposited data

How the results depend on the processing

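Over 15 alternatives, Dppa4 stayed lower in PIASy-WT and passed in 11 of them against non-injection and 9 against PIASy-Mut, and Nfyb, Dppa2 and, against non-injection, Nfyc also stayed lower. Dppa4 against PIASy-Mut was -3.97 but did not pass (adjusted P = 0.0681) in a fit of the groups compared, where 0 genes passed at all. Without 1 library, Dppa4 ranged from -4.05 to -3.62 against non-injection, from -4.61 to -3.32 against PIASy-Mut and from -0.52 to 0.77 between PIASy-Mut and non-injection. In the same leave-outs Dppa2 ranged from -1.14 to -0.83 and from -1.95 to -1.01, Nfyb from -2.25 to -1.63, from -2.24 to -1.13 and, between PIASy-Mut and non-injection, from -0.82 to 0.30, and Nfya from 0.0746 to 1.39 against PIASy-Mut and from -0.77 to 0.54 between PIASy-Mut and non-injection. Calls were gained with an FPKM of at least 5 by Nfyb, at -1.94 and -1.68, and Dppa2 against PIASy-Mut, at -1.48, with voom by Nfyb, at -1.99 and -1.75, and Dppa2 against PIASy-Mut, at -1.52, and in the fit of the groups compared against non-injection by Nfyb, at -1.94, and Dppa2, at -0.98, as well as without PIASy-Mut 1 or PIASy-Mut 2 by both against non-injection, and without PIASy-Mut 2 by Nfyb, Dppa2 and, as higher, Nfya against PIASy-Mut. Quantile normalization, which moved the median of all genes to 0.12 against non-injection and 0.11 against PIASy-Mut, turned Nfyc against PIASy-Mut to 0.0701.

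Of all genes, 928 were lower and 166 higher against non-injection and 968 and 132 against PIASy-Mut. These counts became 154 and 16, and 243 and 11, without a filter, 1441 and 332, and 1483 and 207, at an FPKM of at least 5, and 1941 and 867, and 1913 and 605, with voom. Without the trend 256 and 59 passed against non-injection and 464 were lower against PIASy-Mut, in the fit of the groups compared 1998 and 1047, and 0 and 0, with a pseudocount of 0.1 107 were higher against non-injection, and against PIASy-Mut 490 were lower with quantile normalization and 629 with size factors. With the replicate block 89 were higher against non-injection and 67 against PIASy-Mut, and no call of a member changed. Same-numbered libraries had deviations correlated at 0.00368, 0.0851 and 0.0637 over only 2 pairs, too few to tell whether they were paired, and the labels state no pairing. Leaving out 1 library gave 0 to 1884 lower and 0 to 894 higher against non-injection, and 0 to 2032 and 0 to 1019 against PIASy-Mut. Between PIASy-Mut and non-injection 0 were lower and 1 higher, 2 with voom and 0 to 1 in leave-outs. A group left with 1 library is assumed to vary like the others. The cause of these shifts was not tested. At 15 to 24 fragments in PIASy-WT, the level of Dppa4 there is limited by counting.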
